A study of Mus musculus with 4 samples.

Results

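Plexins, neuropilins and semaphorins were followed in mouse double-positive (DP) thymocytes of Cxxc1 knockout (KO) and control mice. The set holds 8 genes, chosen by name from the 35976 gene symbols of the count files: the plexin genes Plxnd1, Plxnc1 and Plxnb2, the neuropilin genes Nrp1 and Nrp2, and the semaphorin genes Sema4d, Sema7a and Sema4a. Bulk RNA-seq was made from 2 Cxxc1 KO libraries (genotype Cxxc1 F/F with Lck-cre) and 2 control libraries (Cxxc1 +/+ with Lck-cre), so KO and control cells alike carried the Cre transgene. In Lck-cre mice the Cre recombinase is driven by the promoter of Lck, a kinase gene active in T-lineage cells. The cells were sorted from thymus as CD24+, TCRb-, CD4+ and CD8a+, and the sources used here give neither the age of the mice nor any pooling of animals. Since no label ties a library to its own animal, p-values reflect only the spread between libraries, which may be technical. Transcripts of the targeted gene were reduced but not absent. Cxxc1 had 35.7 and 39.4 CPM (read counts scaled for library size) in the KO libraries, from 1245 and 1402 reads, against 110.7 and 53.5 CPM in the control libraries. The KO pair lay below the control pair, and the difference did not pass the test (adjusted p = 0.199 in edgeR's quasi-likelihood test). Which exons were deleted is not known from the labels.

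Semaphorins are secreted or membrane-bound guidance proteins, and plexins are their signalling receptors. Plexins carry an intracellular domain that inactivates Ras-family GTPases and so alters integrin adhesion and the cytoskeleton. Neuropilins are coreceptors that bind class 3 semaphorins, and also VEGF, but have only a short intracellular tail. In the thymus, Sema3E and plexin-D1 are known for guiding thymocytes towards the medulla after positive selection. Cxxc1 encodes a CpG-binding subunit of the complexes in which SETD1 enzymes methylate histone H3 at lysine 4.

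Of the 8 genes, all of which passed the low-count filter, 1 fell, 1 rose and 6 did not pass the test in KO DP thymocytes. Plxnd1, the most abundant plexin transcript, was 4.61-fold lower in the KO than in the control. Nrp1, the main neuropilin transcript, was 4.82-fold higher in the KO than in the control. Calls are those with a Benjamini-Hochberg adjusted p below 0.05 in the quasi-likelihood test of edgeR. It called 0.451% of the 20389 tested genes, 0.27% higher and 0.181% lower. In bulk samples such as these, fewer cells of a type and less RNA per cell cannot be told apart. Each log2 fold change is that of KO over control, with its standard error after ±.

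**Figure D1:**
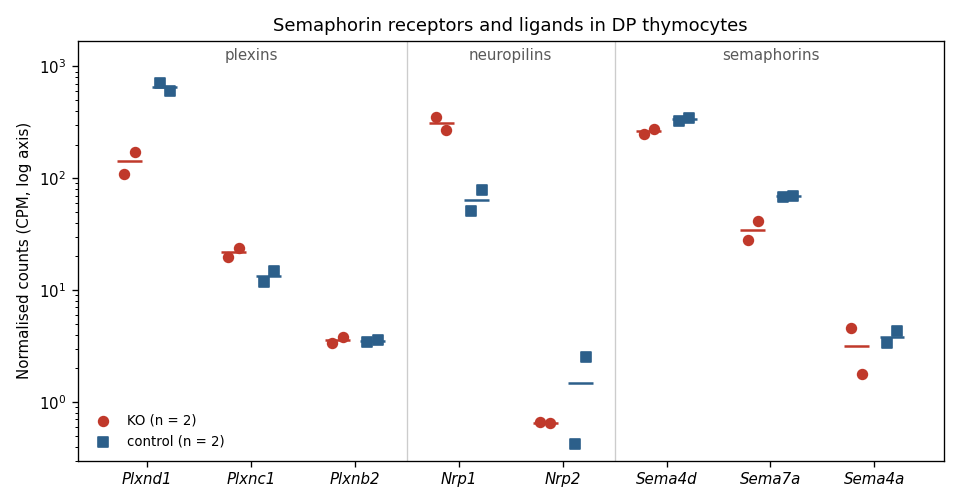
CPM on a log axis for the 8 genes, with 1 point per library (KO circles, control squares, n = 2 each) and a line at each group's mean. Plxnd1 lies at 110 and 173 CPM in the KO against 703 and 604 CPM in the control, and Nrp1 at 351 and 269 CPM in the KO against 50.5 and 77.9 CPM in the control.

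Because Cxxc1 binds CpG DNA, the promoter windows of the 2 called genes are shown, with CG dinucleotides in capitals. Both are RefSeq sequences on GRCm38.p6, the assembly of the mm10 build named in the submitters' processing notes, and run from 250 bases before a RefSeq transcript start to 50 bases after it. The starts are at 115995005 for Plxnd1 and 128359073 for Nrp1, which lie 334 and 482 bases inside the outermost 5′ ends of the gene spans given with the levels. Plxnd1 is on the minus strand at chr6:115994956-115995255, and Nrp1 on the plus strand at chr8:128358823-128359122.
Plxnd1: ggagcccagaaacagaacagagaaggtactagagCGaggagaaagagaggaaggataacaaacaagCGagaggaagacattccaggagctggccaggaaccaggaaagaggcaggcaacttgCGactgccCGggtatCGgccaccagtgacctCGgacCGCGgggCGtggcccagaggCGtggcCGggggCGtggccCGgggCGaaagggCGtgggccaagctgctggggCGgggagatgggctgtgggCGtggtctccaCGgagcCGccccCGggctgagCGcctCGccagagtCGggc
Nrp1: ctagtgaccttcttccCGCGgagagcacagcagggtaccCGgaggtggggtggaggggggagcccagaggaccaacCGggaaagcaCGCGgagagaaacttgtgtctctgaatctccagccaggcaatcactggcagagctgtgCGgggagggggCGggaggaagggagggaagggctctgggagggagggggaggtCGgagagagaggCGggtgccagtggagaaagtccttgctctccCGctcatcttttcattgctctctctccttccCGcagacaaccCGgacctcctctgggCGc

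The Plxnd1 window held 23 CG dinucleotides and the Nrp1 window 14, against a median of 7 over 32851 promoter windows of the same length. For Plxnd1, 78.5% of all windows held fewer, and for Nrp1 63.7%. All 8 genes had at least 1 window, 14 in all, and the counts ran from 2 in a Sema4d window to 37 in the Nrp2 window. Neither the gene that fell nor the gene that rose stood at an end of this range. In the Plxnd1 window, the letters GCGTGG occurred 5 times on both strands together, a motif picked after the sequence was seen. It occurred at least once in 15.6% of all windows and at least 5 times in 0.0304% of them, and 0 times in the Nrp1 window. The motif was chosen from the Plxnd1 window, so these shares cannot show that the window is unusual. Further motifs, searched on both strands, had no match in the Plxnd1 and Nrp1 windows. These were the RUNX letters TGTGGT, which 16.8% of all windows held. The same was true of the E-box letters CAGCTG, held by 16.3%. It was also true of the TCF1 and LEF1 letters CTTTGA, held by 16.0%. These counts describe letters in the reference, and neither methylation nor binding was measured in these libraries.

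Among the receptors, Plxnd1 (chromosome 6, 115954811 to 115995339 on GRCm38) encodes plexin-D1, the receptor for Sema3E. It had 110 and 173 CPM in the KO libraries, against 703 and 604 CPM in the control libraries. The KO pair lay far below the control pair, and KO 1 was the lower of the KO pair. Means were 142 ± 44.6 CPM in the KO and 654 ± 70.1 CPM in the control (SD, n = 2 each), a log2 fold change of -2.21 ± 0.28 (95% interval -2.84 to -1.58, adjusted p = 0.0177 in edgeR's quasi-likelihood test). By CPM, Plxnd1 ranked 1466 among the 20389 tested genes in the KO and 154 in the control. Without KO replicate 1 the log2 fold change was -1.88 and the call ended (adjusted p = 0.0733). With the low-count filter applied anew to those 3 libraries, a choice made after seeing the data, it was -1.86 and the call held. The standard error was then larger (0.306 against 0.289), and the median moderated degrees of freedom were 40.4 against 9.52. That call is therefore not stronger evidence for the fall.

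Plxnc1 (chromosome 10, 94790866 to 94945015) encodes plexin-C1, a receptor for Sema7A. Its level was 19.8 and 23.9 CPM in the KO libraries, against 11.9 and 14.8 CPM in the control libraries. Both KO libraries lay above both control libraries, the opposite side to Plxnd1. The log2 fold change of 0.71 ± 0.34 did not pass the test (95% interval -0.06 to 1.47, adjusted p = 0.401 in edgeR's quasi-likelihood test).

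Plxnb2 (chromosome 15, 89155546 to 89182018) encodes plexin-B2, a receptor for class 4 semaphorins such as Sema4D. It stood at 3.39 and 3.82 CPM in the KO libraries, against 3.45 and 3.55 CPM in the control libraries. The groups overlapped, and the log2 fold change was 0.04 ± 0.64. Its 95% interval, from -1.41 to 1.495, includes changes of more than 2-fold in either direction, so the test does not show whether its level differed.

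Nrp1 (chromosome 8, 128358591 to 128505476) encodes neuropilin-1, a coreceptor for class 3 semaphorins and VEGF that in T cells is also known as a marker of thymus-derived regulatory T cells. It had 351 and 269 CPM in the KO libraries, against 50.5 and 77.9 CPM in the control libraries. Both KO libraries lay above both control libraries, and the lower KO library was still well above the higher control library. Means were 310 ± 57.8 CPM in the KO and 64.2 ± 19.3 CPM in the control (SD, n = 2 each), a log2 fold change of 2.27 ± 0.28 (95% interval 1.63 to 2.91, adjusted p = 0.0177 in edgeR's quasi-likelihood test). By CPM it ranked 508 among tested genes in the KO and 3409 in the control. Without KO replicate 1 the log2 fold change was 2.10 and the call ended. With the filter applied anew to those 3 libraries it was 2.12 and the call held, under the same rise in degrees of freedom as for Plxnd1.

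Nrp2 (chromosome 1, 62703317 to 62818692), the gene of the second neuropilin, had few reads in every library. It had 0.660 and 0.646 CPM in the KO libraries, from 23 reads in each, against 0.420 and 2.51 CPM in the control libraries, from 5 and 87 reads. The control libraries lay on either side of the KO pair, and the log2 fold change of -1.18 ± 1.34 turned to 0.63 without control replicate 2. Nrp1 had 532 and 416 times as many reads as Nrp2 in the KO libraries, against 120.2 and 31.02 times in the control libraries.

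The ratio of Nrp1 to Plxnd1 counts within a library does not depend on how libraries are scaled. It was 3.18 and 1.55 in the KO libraries, against 0.0718 and 0.129 in the control libraries. Nrp1 thus had more reads than Plxnd1 in both KO libraries and far fewer in both control libraries. With 2 libraries a group, an exact permutation test of this ratio cannot give a two-sided p below 0.333, the value it gives here. Both genes were already called, in opposite directions and without overlap, so the ratio restates those results and is not separate support.

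Among the ligands, Sema4d (chromosome 13, 51685529 to 51793678) encodes CD100, a transmembrane semaphorin of lymphocytes that binds plexin-B1, plexin-B2 and CD72. It had 249 and 277 CPM in the KO libraries, against 328 and 343 CPM in the control libraries. The KO pair lay below the control pair without overlap, by a small amount. The log2 fold change of -0.35 ± 0.22 did not pass the test (95% interval -0.84 to 0.14, adjusted p = 0.530 in edgeR's quasi-likelihood test).

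Sema7a (chromosome 9, 57939596 to 57962865) encodes a GPI-anchored semaphorin that binds plexin-C1 and the integrin alpha 1 beta 1. Its level was 28.3 and 41.2 CPM in the KO libraries, against 67.9 and 70.0 CPM in the control libraries. The KO pair lay below the control pair without overlap. The log2 fold change was -0.99 ± 0.27 (95% interval -1.61 to -0.37). It was not called (adjusted p = 0.172 in edgeR's quasi-likelihood test). DESeq2, which called 4.74% of the genes it tested, called Sema7a at -1.01 (adjusted p = 0.0314).

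Sema4a (chromosome 3, 88435959 to 88461182) encodes a class 4 semaphorin that binds the mouse receptor Tim-2. It had 4.62 and 1.77 CPM in the KO libraries, against 3.363 and 4.33 CPM in the control libraries. The KO libraries lay on either side of the control pair. The log2 fold change was -0.27 ± 0.72, and it was 0.26 without KO replicate 2.

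In 5 of the 8 genes, or 62.5%, the KO and control libraries did not overlap, with 2 higher and 3 lower in the KO. Over all tested genes the libraries did not overlap in 46.8%, with 22.8% higher and 24% lower. The share in the 8 is higher but rests on few genes, so it is not read as a result about them. The median log2 fold change of the 8 genes was -0.31, against -0.04 over all tested genes. Genes overlapping the spans of the 8 in RefSeq were few: 2 at Nrp1, 2 at Nrp2, 1 at Plxnb2, 1 at Sema4a and 0 at Plxnd1, Plxnc1, Sema4d and Sema7a. The sources used here do not say whether counting used strand, so reads of such overlaps cannot be assigned.

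**Figure D2:**
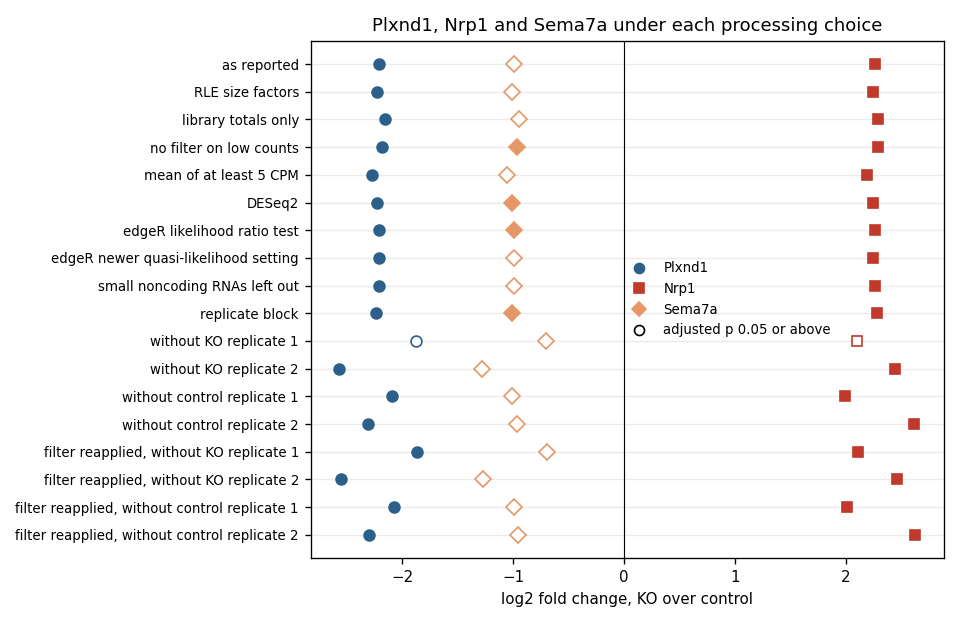
Log2 fold change, KO over control, of Plxnd1, Nrp1 and Sema7a in the comparison as reported and under each processing choice, filled where the adjusted p is below 0.05. Plxnd1 stays left of 0 and Nrp1 right of 0 throughout, both lose their call without KO replicate 1 (-1.88 and 2.10), and Sema7a passes in some settings and not in others.

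The wider family of 9 plexin, 2 neuropilin and 20 semaphorin genes held no other called gene. Of the 31, 29 passed the low-count filter, and Sema3d and Sema6d did not. Among the 29, 1 rose, 1 fell and 27 did not pass the test. At an unadjusted p below 0.05 there were 2 higher and 4 lower, 6 of 29 genes or 20.7%, against 13.9% of all tested genes. Libraries did not overlap in 14 of the 29, with 4 higher and 10 lower in the KO. That is 48.3% of them, near the 46.8% of all tested genes. By direction, 22.8% of all tested genes were higher and 24% lower. The 29 genes leaned further to the lower side, a lean that was not tested. The median log2 fold change was -0.35.

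Of the plexins outside the 8, the most abundant were Plxna1 and Plxnb1. Plxna1 encodes a class A plexin, and Plxnb1 the high-affinity receptor for Sema4D. Plxna1 had 25.1 and 19.9 CPM in the KO libraries, against 25.6 and 15.9 CPM in the control libraries (log2 fold change 0.12 ± 0.35). Plxnb1 had 15.7 and 11.3 CPM in the KO libraries, against 17.5 and 22.1 CPM in the control libraries (-0.56 ± 0.36). The groups overlapped for Plxna1 and did not for Plxnb1. Plxna4, which encodes a receptor that pairs with neuropilin-1 for Sema3A, is named after its values were seen. It had 0.746 and 0.759 CPM in the KO libraries, against 4.12 and 6.35 CPM in the control libraries. Its log2 fold change of -2.80 ± 0.78 did not pass edgeR's quasi-likelihood test (adjusted p = 0.175), and DESeq2 called it at -2.83 (adjusted p = 0.0248). An antisense gene, Plxna4os1, overlaps Plxna4 and had between 0 and 6 reads a library.

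Of the semaphorins outside the 8, the most abundant were the class 4 genes Sema4b and Sema4g. Sema4b had 52.3 and 42.9 CPM in the KO libraries, against 25.6 and 28.0 CPM in the control libraries. Both KO libraries lay above both control libraries, and the log2 fold change of 0.83 ± 0.27 did not pass the test (adjusted p = 0.231 in edgeR's quasi-likelihood test). Sema4g had 16.5 and 14.5 CPM in the KO libraries, against 10.3 and 16.8 CPM in the control libraries, which overlapped (0.19 ± 0.39). The 7 class 3 genes, whose secreted products include ligands of neuropilins and plexin-D1, were at or below 2.75 CPM in every library. Summed over the class they reached 3.07 and 4.75 CPM in the KO libraries, against 7.23 and 1.82 CPM in the control libraries. Sema3e, the gene of a plexin-D1 ligand, had 0 and 0.421 CPM in the KO libraries, against 0.757 and 0 CPM in the control libraries. The sorted DP cells therefore held transcripts of the receptors Plxnd1 and Nrp1 and almost none of their class 3 ligands in either genotype. A floor of 3 reads is worth 0.0861 and 0.0843 CPM in KO 1 and KO 2, and 0.252 and 0.0865 CPM in control 1 and control 2, for counting error only.

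**Figure D3:**
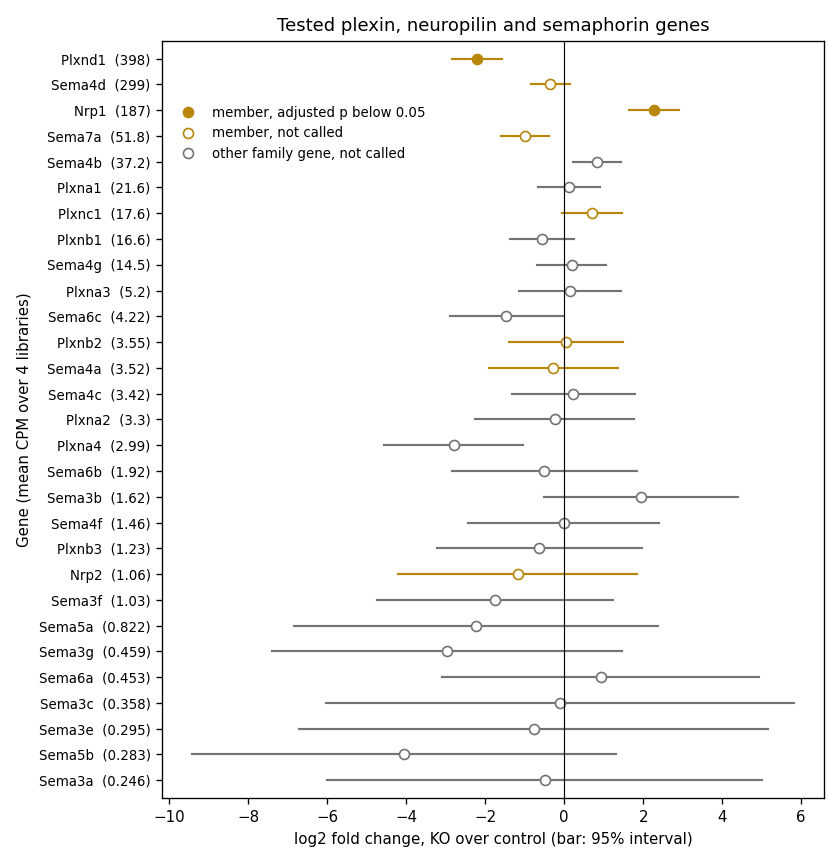
Log2 fold change, KO over control, with its 95% interval for the 29 tested family genes, ordered from the highest mean CPM at the top. Plxnd1 at -2.21 and Nrp1 at 2.27 are the filled points, and intervals widen down the page as CPM falls.

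Precision followed abundance. The 9 family genes with a mean of at least 10 CPM had standard errors of 0.216 to 0.386, and the 20 below 10 CPM had 0.572 to 2.64. For most of the family the test could therefore show only large changes.

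To compare levels between genes, CPM was divided by the length of each gene's merged exons in GENCODE M21, which may differ from the annotation behind the counts. On this scale of CPM per kilobase (kb), Plxnd1 led in the control and Sema4d in the KO. In the KO the order was Sema4d at 34.2 ± 2.64, Nrp1 at 31.7 ± 5.91, Plxnd1 at 19.4 ± 6.11, Sema7a at 10.5 ± 2.76 and Sema4b at 8.43 ± 1.18 CPM per kb. In the control it was Plxnd1 at 89.5 ± 9.60, Sema4d at 43.7 ± 1.36, Sema7a at 20.9 ± 0.436, Nrp1 at 6.56 ± 1.98 and Sema4b at 4.75 ± 0.290 CPM per kb (SD, n = 2 each). In the KO, Sema4d and Nrp1, and likewise Sema7a and Sema4b, differed by less than their spread, while in the control only Nrp1 and Sema4b among these 5 did.

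The summed level of the family was 114.8 and 120.1 CPM per kb in the KO libraries, against 184 and 175 CPM per kb in the control libraries. Plxnd1 made up 13.1% and 19.8% of that sum in the KO libraries, against 52.4% and 47.4% in the control libraries. Nrp1 made up 31.2% and 22.9% in the KO libraries, against 2.81% and 4.55% in the control libraries. Plexins as a kind took 20.5% and 26.1% in the KO, against 56.8% and 51.7% in the control, and neuropilins 31.3% and 22.9% in the KO, against 2.83% and 4.68% in the control. Semaphorins took 48.2% and 50.9% in the KO, against 40.3% and 43.6% in the control. Within the semaphorins, the share of Sema4d was alike in all libraries, at 58.4% and 59.0% in the KO and 57.6% and 58.5% in the control.

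**Figure D4:**
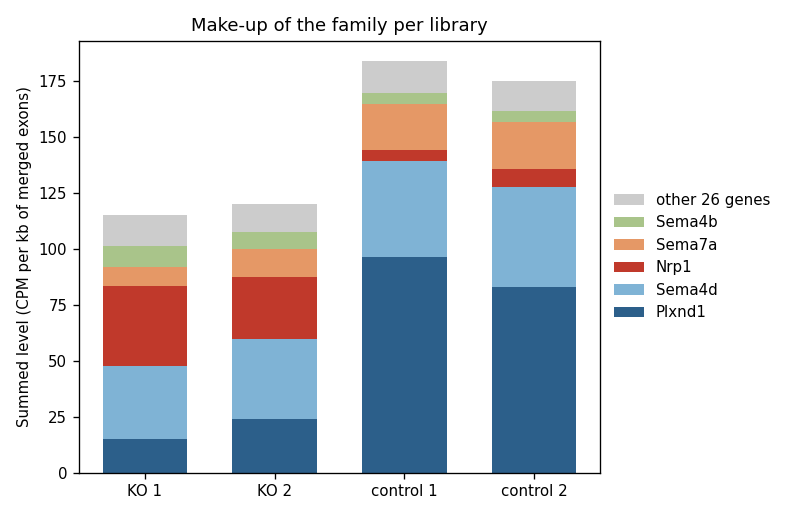
Stacked bars of the summed level of the 31 family genes in each library, in CPM per kb of merged exons, with the 5 most abundant genes coloured. Plxnd1 is the largest block in both control libraries, at 96.3 and 82.7 CPM per kb, and Nrp1 is 35.9 and 27.5 CPM per kb in the KO libraries.

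No other gene of the pathway passed edgeR's quasi-likelihood test. Of 10 other receptors and ligands, 9 were tested, with 0 called by edgeR or DESeq2 and 0 at an unadjusted p below 0.05 in edgeR. The most abundant were Itgb1, the integrin beta 1 chain that pairs into the Sema7A receptor, at 129.95 ± 1.06 CPM in the KO and 112 ± 24.2 CPM in the control (log2 fold change 0.21 ± 0.24), then the adhesion molecule gene L1cam (0.34 ± 0.53) and Vegfa, a neuropilin ligand gene (-0.63 ± 0.53). Of 38 intracellular partners, 37 were tested, with 0 called by edgeR, 1 called by DESeq2, and 1 higher and 4 lower at an unadjusted p below 0.05 in edgeR. These 5 are 13.5% of the partners, against 13.9% of all tested genes, and DESeq2 called 4.74% of all the genes it tested, so both counts are no higher than the background. The most abundant were the actin-severing factor gene Cfl1 (-0.06 ± 0.23), the kinase gene Rock1 (-0.53 ± 0.23) and the small GTPase gene Rhoa (-0.17 ± 0.24). The one higher at the unadjusted level was Rras2, an R-Ras family GTPase gene and so of the kind plexins act on. It had 70.8 and 55.2 CPM in the KO libraries, against 27.0 and 35.9 CPM in the control libraries (1.00 ± 0.28, adjusted p = 0.175 in edgeR's quasi-likelihood test), and was the gene DESeq2 called (0.98, adjusted p = 0.0475). Mical1, which encodes an actin-oxidising enzyme that acts downstream of plexins, had 80.1 and 94.3 CPM in the KO libraries, against 148 and 142 CPM in the control libraries (-0.74 ± 0.22, adjusted p = 0.198). Rras2 and Mical1 are named after their values were seen. The median log2 fold change was -1.03 over the 9 other receptors and ligands, most of them below 5 CPM, and -0.27 over the 37 partners.

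The genes whose pattern over the 4 libraries was most like that of Plxnd1 were sought among 4108 tested genes with a mean of at least 50 CPM, by the distance between centred log2 CPM values. The nearest was Lsp1, an actin-binding protein gene of leukocytes, at a distance of 0.0929. It had 46.8 and 80.4 CPM in the KO libraries, against 318 and 268 CPM in the control libraries. Next came the coreceptor gene Cd4 at 0.278, Gtf2h4, which encodes a TFIIH subunit, at 0.363, Dntt, the terminal transferase gene, at 0.417 and Vasn at 0.448. All 5 were higher in both control libraries than in both KO libraries, which follows from choosing them by likeness to Plxnd1. With 4 libraries this likeness is a description.

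Marker genes of the labelled cell type were present in all libraries, at different levels. Cd4, Cd8a and Dntt were called lower among 10 DP markers. The KO pair lay below the control pair in 7 of the 10, the groups overlapped for Cd24a and Rag2, and Ptcra, the pre-T-cell receptor alpha gene, lay the other way. Over all tested genes, the KO pair lay below the control pair in 24%, and 0.181% were called lower. Ptcra had 49.9 and 26.5 CPM in the KO libraries, against 13.5 and 4.27 CPM in the control libraries (log2 fold change 2.13 ± 0.55, not called). The summed level of that list was 5917 and 8545 CPM in the KO libraries, against 12090 and 15685 CPM in the control libraries, of which Rag1 made up 50.7% and 52.5% in the KO and 41.1% and 44.98% in the control. Il2ra, Il7r, Dtx1 and Notch3 were called higher among 10 markers of early double-negative thymocytes, which summed to 912 and 507 CPM in the KO libraries, against 172 and 140 CPM in the control libraries. Of the 9 tested, 6 had both KO libraries above both control libraries, Kit and Flt3 overlapped, and Cd44 lay the other way. Over all tested genes, 22.8% had both KO libraries above both control libraries, and 0.27% were called higher. Cd44 had 11.7 and 15.003 CPM in the KO libraries, against 30.3 and 35.2 CPM in the control libraries (log2 fold change -1.30 ± 0.32, not called). Notch3, Il2ra and Dtx1 held most of the double-negative sum in every library. KO 1, the KO library with less Plxnd1 and more Nrp1, was also the one with the lower DP sum and the higher double-negative sum. The part of these markers in the results for Plxnd1 and Nrp1 was not tested.

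Other cell types with plexins or neuropilins were looked for by their markers. Endothelial markers summed to 103 and 135 CPM in the KO libraries, against 135 and 154 CPM in the control libraries, nearly all of it Pecam1, which leukocytes also express. Without Pecam1 the defining markers were low: Cdh5 was at most 0.420 CPM and Kdr at most 1.60 CPM in any library. Tie1 reached 6.56 CPM in control 1 and was at most 0.462 CPM in the others. Markers of dendritic cells and macrophages summed to 10.3 and 13.5 CPM in the KO, against 10.0 and 15.3 CPM in the control, with Siglech, the marker of the plasmacytoid dendritic cells that also carry neuropilin-1, at 0.258 and 0.169 CPM in the KO and 0.841 and 0.115 CPM in the control. B cell markers summed to 10.8 and 7.92 CPM in the KO, against 9.67 and 8.02 CPM in the control. Mature single-positive markers summed to 109 and 97.4 CPM in the KO, against 99.8 and 97.1 CPM in the control, with Il7r, which is also in the double-negative list, called higher. Thymic epithelial markers summed to 13.9 and 16.4 CPM in the KO, against 5.55 and 8.48 CPM in the control. Epcam made up 83.6% and 91.8% of that sum in the KO, against 19.7% and 57.5% in the control. Foxn1, Psmb11, Krt8 and Krt5 were at most 0.172 CPM in either KO library. The first 3 of these lay lower in the KO pair than in the control pair, with none called. They rested on few reads. Foxn1 had 6 and 2 reads in the KO against 19 and 40 in the control. Psmb11 had 2 and 0 against 14 and 48, and Krt8 had 2 and 0 against 4 and 12. Among all tested genes, 24% lay lower and 22.8% higher in the KO pair. Aire, the remaining marker of the list, lay higher in the KO pair, as Epcam did (log2 fold change 1.54 ± 1.25, not called). That gene had 1.92 and 1.29 CPM in the KO, against 0.420 and 0.664 CPM in the control. Erythroid markers summed to 33.2 and 24.1 CPM in the KO, against 10.3 and 14.9 CPM in the control, with Hba-a1 called higher. No marker in these lists was at 0 in all 4 libraries, and the globin genes Hba-a1, Hbb-bs and Hbb-bt were at 0 in both control libraries. The part of the epithelial and erythroid markers in the results was not tested.

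Total counts assigned to genes were 36243182 and 33544428 in the KO libraries, against 12150508 and 34820446 in the control libraries, so control 1 was the shallowest.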

How the data were processed

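Counts were deposited by the authors as 1 file per library, with whole-number read counts per gene symbol and no normalisation. Reads were aligned with HISAT2, per the file headers. The build mm10 and the tools edgeR 3.36.0, featureCounts 2.0.8, HISAT2 2.2.1 and cutadapt 4.0 are listed in the submitters' processing notes without their roles. Per the labels' protocols, libraries were made with a SMART-seq kit, which amplifies cDNA. Counts were taken as reads and not molecules, so floors cover counting error only. The sources used here do not give the annotation, the strand setting or the handling of multi-mapping reads.

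The analysis used edgeR 4.0.16 in R 4.3.3: filterByExpr defaults (minimum count 10, minimum total 15), TMM scaling (factors 0.962 and 1.06 in the KO, 0.981 and 0.997 in the control), estimateDisp, glmQLFit and glmQLFTest with genotype as the only term, and Benjamini-Hochberg adjustment over all 20389 tested genes. Standard errors are the log2 fold change divided by the square root of F, and intervals use the moderated degrees of freedom (median 9.19). The biological coefficient of variation was 57.4%. CPM values use TMM-scaled library sizes. No library was treated as a duplicate, since the counts of any pair differed beyond counting error (the smallest chi-square over its degrees of freedom was 43.3).

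The 8 genes, the pathway and marker lists and the tests were chosen with earlier results of these data known. Outside the 8, the rule named called genes, and otherwise the 2 plexins, 2 semaphorins, 3 other receptors or ligands and 3 intracellular partners with the highest CPM, and the 5 genes most like Plxnd1. Alternatives were another scaling, filter or test (DESeq2 1.42.0 among them), the small noncoding RNAs left out, the replicate number as a block, and each library left out in turn on the same genes.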

Additional observations from a re-analysis of the deposited data

How the results depend on the processing

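Over all genes, 92 were called. The count was 231 at a mean of at least 5 CPM, 920 without the filter, 947 by DESeq2, 997 by the likelihood ratio test and 9 to 619 with each library left out, lowest without KO replicate 1. With the filter applied anew, added after seeing the data, it was 223, 384, 864 and 805 without KO replicate 1, KO replicate 2, control replicate 1 and control replicate 2. Of all calls, 59.8% were higher in the KO, against 67.6% with library totals only, 47.6% at a mean of at least 5 CPM, 46.6% by DESeq2, 45.7% by the likelihood ratio test, 45.6% without KO replicate 2 and 77.8% without KO replicate 1.

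Of the 31 family genes, 2 were called, against 4 by DESeq2 and by the likelihood ratio test, where Plxna4 and Sema7a joined Plxnd1 and Nrp1, and 0 to 3 with each library left out. The 0 was without KO replicate 1, where Plxnd1 and Nrp1 had -1.88 and 2.10 and 3 family genes had an unadjusted p below 0.05 (1 higher, 2 lower). Over the alternatives that keep all libraries, Plxnd1 ranged from -2.27 to -2.16 and Nrp1 from 2.19 to 2.29. With each library left out they ranged from -2.57 to -1.88 and from 1.99 to 2.62. Sema7a was called without the filter at -0.96, by DESeq2 at -1.01 and by the likelihood ratio test at -0.99, and ranged from -1.28 to -0.71 with each library left out. The fit without the filter had a median of 61226 moderated degrees of freedom, against 9.19 in the comparison as reported. The direction of 3 uncalled genes turned when 1 library was left out: Plxnb2 ranged from -0.045 to 0.16, Nrp2 from -1.94 to 0.63 and Sema4a from -1.08 to 0.26, and with the filter applied anew the turned values were -0.029, 0.64 and 0.28. Plxnb2, Nrp2 and Sema4a were not tested at a mean of at least 5 CPM.

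The labels give both genotypes replicates 1 and 2. Same-numbered libraries deviated together with r = -0.0096 over all tested genes and 0.269 over the 11018 with at least 5 CPM, and nothing in the labels says what a shared number stands for, so a pairing was not established. With the replicate block, 1599 genes and 5 of the family were called, the added ones being Sema4b, Plxna4 and Sema7a (-1.01), with 1 residual degree of freedom. After moderation the median was 20389 degrees of freedom, so the spread of each gene was treated almost as known. Depth sets the floor of 3 reads, 0.0843 to 0.252 CPM a library. Standard errors of the 20 family genes below 10 CPM reach 2.64, and the part of depth in them was not tested.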
